A study of Mus musculus with 12 samples.

Results

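The dorsal root ganglia (DRG) of mice that had lived in an enriched environment (EE) before a sciatic nerve axotomy (SNA) were compared with those of mice that had lived in standard housing (SH) before the same injury. The comparison held the 6 injured samples of a series of 12, 3 of EE + SNA and 3 of SH SNA, chosen by their labels, and the other 6 samples were the sham-operated mice of both housings. Each sample was a pool of the sciatic (L4 to L6) DRG of both sides of 2 C57BL/6 mice that were 5 to 8 weeks old. The mice were housed for 10 days, underwent SNA or sham surgery, and gave up their DRG 24 h later for mRNA sequencing.

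The labels of EE + SNA and SH SNA name no transgene or drug, and the groups differ in the cage. An enriched cage held more mice and a running wheel, tunnels and nesting material, so that company, exercise and objects cannot be told apart. SH Sham and EE Sham mice had the same housings and no cut nerve. The study's text describes EE Sham as a dataset of earlier date than the rest, so that in the sham-operated samples housing and dataset cannot be told apart. Whole ganglia hold neurons, satellite glia, Schwann cells, vessels and immune cells, and in bulk RNA fewer cells of a type and less RNA per cell cannot be told apart.

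Sensory neurons answer a cut of the peripheral axon with a program of transcription factors, peptides and growth proteins, among them Atf3, galanin and GAP-43, and this program is the base of the conditioning lesion. Cholesterol, which growing membranes and myelin need, is made from acetyl-CoA by the mevalonate pathway under the transcription factor SREBP2. The vessels of the ganglion carry smooth muscle and pericytes, whose contractile genes depend on serum response factor and its cofactors.

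The 6 injured pools held between 11401221 and 22871460 reads on genes (median 12564255). Levels are given as CPM, the counts scaled to library size by the trimmed mean of M-values, and differences as log2 fold changes of EE + SNA over SH SNA ± SE (n = 3 pools a group). Atf3, the transcription factor that marks axotomized neurons, was at 480.4, 454 and 516 CPM in the EE + SNA pools and 549, 502 and 499 CPM in the SH SNA pools, against 136, 136 and 168 CPM in EE Sham and 109.9, 138 and 109.9 CPM in SH Sham. All 6 injured pools were thus above all 6 sham pools, and between the injured groups Atf3 did not pass the test (log2 fold change −0.097 ± 0.065). Housing has no marker gene that could check its label. The 23 sensory neuron markers were all detected, and their summed level lay between 23300.0 and 25050.0 CPM in the injured pools, with 0 of 23 called.

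Between the injured groups, 666 of 16238 genes were called at an unadjusted P-value of 0.05, the threshold of the study (4.1% of genes, 351 higher and 315 lower after EE). By edgeR, 0 genes passed after Benjamini-Hochberg adjustment, with a smallest adjusted P of 0.989, while DESeq2 called 312 at the unadjusted threshold and 2 after adjustment, Acta2 and Tagln. All calls named below are therefore at the unadjusted threshold, unless an adjusted P is given, and their single P-values are not printed, since every one had an adjusted P of 0.989 or more. To keep apart what rests on 1 pool, the comparison was fitted again without each of the 6 pools in turn. In all 7 fits, 133 genes were called with the same sign (0.819% of genes), 63 higher and 70 lower, with absolute log2 fold changes from 0.16 to 1.62 (median 0.37). The groups did not overlap for 1684 genes (10.4%), 857 higher (5.28%) and 827 lower (5.09%).

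Several genes known from vascular smooth muscle were called higher after EE + SNA. Among the 5 genes higher after EE + SNA with the smallest P were Kcnmb1, Tagln and Acta2, which encode the smooth muscle subunit of the BK potassium channel, transgelin and smooth muscle alpha-actin. Kcnmb1 (chr11:33963013-33973641 on the mm10 assembly, GRCm38) stood at 46.9, 45.3 and 43.6 CPM in EE + SNA and 34.02, 36.9 and 32.5 CPM in SH SNA (log2 fold change 0.39 ± 0.074). Tagln (chr9:45929619-45936058) stood at 66.03, 62.8 and 67.6 CPM in EE + SNA and 55.1, 40.5 and 41.5 CPM in SH SNA (log2 fold change 0.52 ± 0.10), and its adjusted P by DESeq2 was 0.0251. Acta2 (chr19:34241090-34255590) stood at 35.2, 29.7 and 31.2 CPM in EE + SNA and 25.3, 18.2 and 15.5 CPM in SH SNA (log2 fold change 0.70 ± 0.15), again with an adjusted P of 0.0251 by DESeq2. For each of the 3 genes every EE + SNA pool was above every SH SNA pool, and each was called in all 7 fits.

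Sham pools overlapped for Acta2 and Tagln. Acta2 was at 11.7, 36.7 and 21.4 CPM in EE Sham and 16.9, 23.96 and 15.2 CPM in SH Sham, so that the EE Sham pools spread over the whole SH Sham range, and Tagln at 26.5, 65.6 and 42.2 CPM in EE Sham and 32.3, 49.4 and 35.9 CPM in SH Sham did the same. Kcnmb1 was at 52.97, 56.2 and 54.8 CPM in EE Sham and 50.3, 46.8 and 45.9 CPM in SH Sham and was called higher there too (log2 fold change 0.20). In SH mice Kcnmb1 was lower after SNA than after sham surgery (log2 fold change −0.47, adjusted P 0.0015 by edgeR). Acta2 (0.080) and Tagln (0.23) did not pass there. The cell type that gave the reads of Kcnmb1 was not tested. The interaction of housing and surgery called none of these genes, where 2.61% of all genes were called. Exons of Tagln share 1241 bases (62.4%) with Gm48529 on the other strand, and the strand setting of the counting is not given, so that its reads may include those of the antisense gene.

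A list of 17 smooth muscle and pericyte genes, picked after these values were seen, describes how far this went. Of the 17, 7 were called higher and 0 lower, where 2.16% of all genes were called higher, 15 had a positive sign, and the median log2 fold change was 0.31 against 0.0024 over all genes. The choice of the list fixed part of this count, so that it is a description. Without the third SH SNA pool 6 were called higher (2.14% of all genes were), with a median of 0.20. Myh11, the smooth muscle myosin heavy chain, was at 18.9, 19.5 and 16.3 CPM in EE + SNA and 15.1, 12.7 and 10.5 CPM in SH SNA (log2 fold change 0.52 ± 0.13). Lmod1, leiomodin 1 of smooth muscle, was at 3.74, 3.61 and 2.82 CPM in EE + SNA and 2.45, 1.77 and 1.51 CPM in SH SNA (log2 fold change 0.82 ± 0.24). Both were called in all 7 fits. Among pericyte genes Cspg4 was called (log2 fold change 0.33), while Rgs5 (0.065), Pdgfrb (0.18) and Mcam (−0.016) did not pass. The summed level of the list was 769.5, 758 and 813 CPM in EE + SNA and 719, 688 and 699.5 CPM in SH SNA. Promoter windows (250 bases before to 50 after the start, RefSeq) were in the table for 13 of the 17 genes, and 1 of these, Myl9, held an exact CArG box, the site of serum response factor, against 1.63% of all windows. The pattern was CCWWWWWWGG, where W is A or T, and it was not among the planned motifs. Sites that depart from it were not counted, so other genes may hold imperfect sites.

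Cyr61 and Ctgf, secreted matrix proteins of the CCN family that are known targets of YAP and serum response factor, were among the 10 largest increases of genes that were called in all 7 fits, had groups that did not overlap and averaged at least 1 CPM. Cyr61 was at 8.45, 7.83 and 12.5 CPM in EE + SNA and 5.28, 5.15 and 5.89 CPM in SH SNA (log2 fold change 0.80 ± 0.18). Ctgf was at 28.7, 27.1 and 40.9 CPM in EE + SNA and 24.2, 16.1 and 19.2 CPM in SH SNA (log2 fold change 0.69 ± 0.17). In both, the 3 EE + SNA pools were above the 3 SH SNA pools, and the third EE + SNA pool was highest. In the sham mice, Cyr61 was also called higher after EE (log2 fold change 0.70), and Ctgf was not (−0.13). Of 12 endothelial markers 3 were called higher (2.16% of all genes were) and 0 lower, with a median of 0.17, and without the third EE + SNA and second SH SNA pools 1 was higher and 1 lower (2.39% and 2.89% of all genes), with a median of 0.058. The 3 were Egfl7 (log2 fold change 0.29 ± 0.089), the VE-cadherin gene Cdh5 (0.23 ± 0.082) and the VEGF receptor gene Kdr (0.36 ± 0.13), whereas Pecam1 was at 0.0088.

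**Figure D1:**
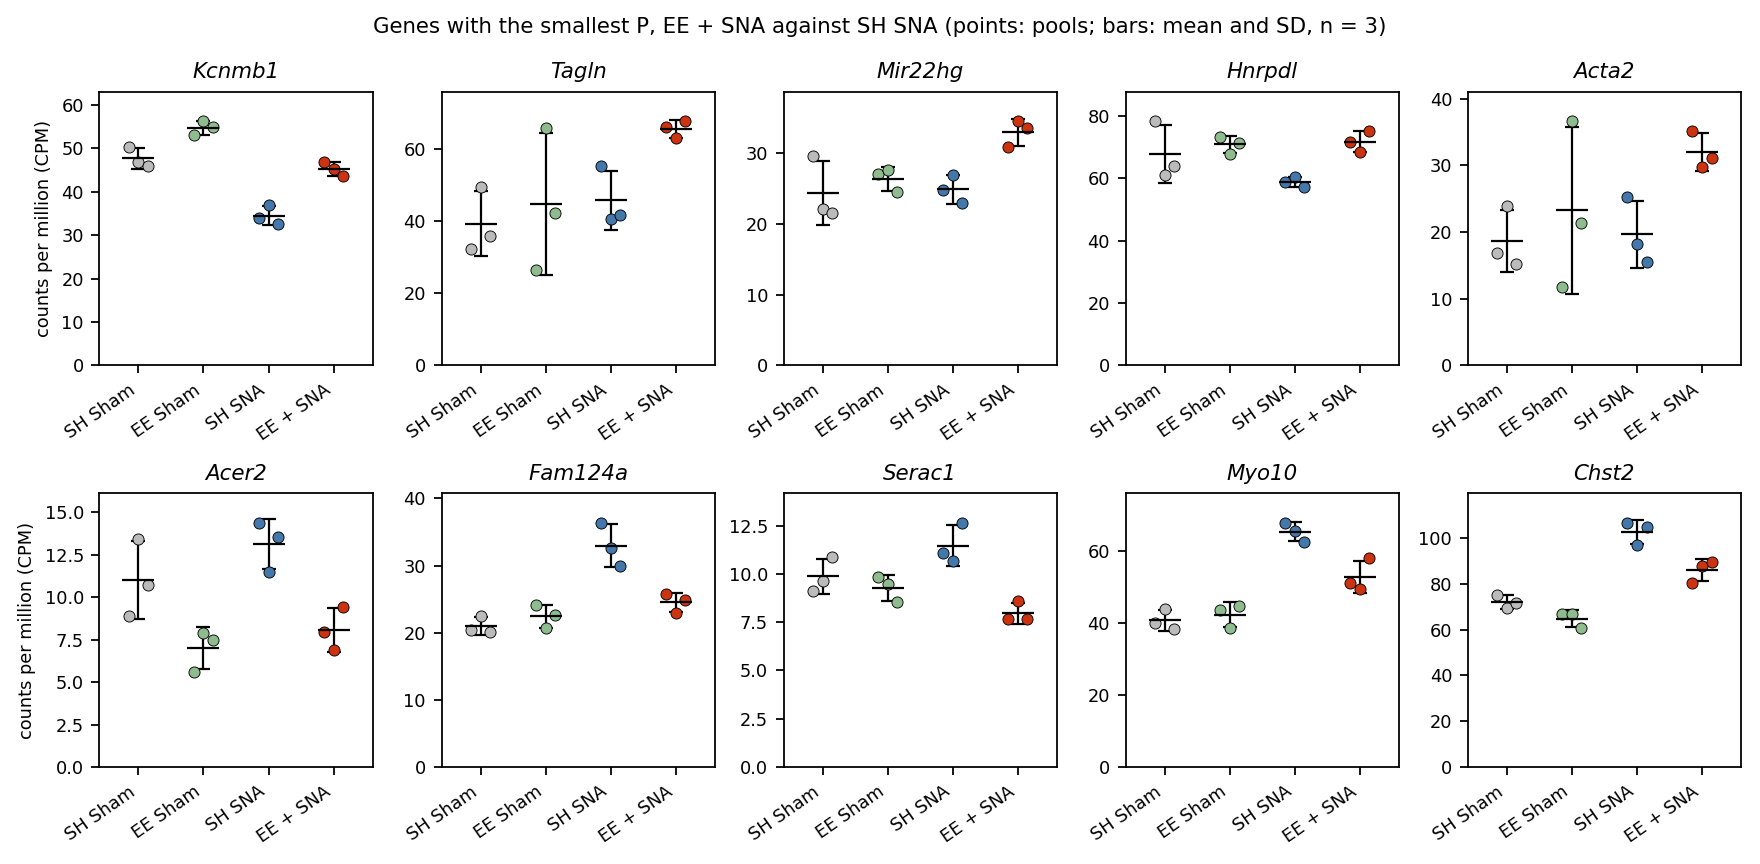
CPM (vertical axes, linear from 0) of the 5 higher genes (top) and the 5 lower genes (bottom) with the smallest unadjusted P in EE + SNA against SH SNA, in the 4 groups. Points are pools, and horizontal and vertical bars are the mean and SD of 3 pools. In every panel the red EE + SNA points and the blue SH SNA points do not overlap, while for Acta2 and Tagln the EE Sham points spread over the whole range of SH Sham.

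Many genes of cholesterol synthesis were called higher after EE + SNA. Of 19 measured members of this list, 10 were called higher and 0 lower, where 2.16% of all genes were called higher, and 18 had a positive sign and the median log2 fold change was 0.15. The differences were small, at most 0.33, and 4 members were called in all 7 fits, where 0.388% of all genes were called higher in all 7. The groups did not overlap for 8 of the 19, all of them higher, where 5.28% of all genes were higher without overlap.

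Those 4 were Sc4mol (now named Msmo1), Lss, Idi1 and Cyp51. Idi1, the isopentenyl-diphosphate isomerase, was at 414, 394 and 421 CPM in EE + SNA and 329, 383 and 302 CPM in SH SNA (log2 fold change 0.28 ± 0.080). Lss, the lanosterol synthase, was at 54.02, 66.01 and 50.3 CPM in EE + SNA and 44.1, 46.9 and 45.2 CPM in SH SNA (log2 fold change 0.33 ± 0.095). For both enzymes the lowest EE + SNA pool was above the highest SH SNA pool. Cyp51, the lanosterol demethylase, was at 185, 183 and 199 CPM in EE + SNA and 152, 178 and 147 CPM in SH SNA (log2 fold change 0.25 ± 0.073). Sc4mol, the methylsterol oxidase, was at 283, 287 and 293 CPM in EE + SNA and 238, 263 and 241 CPM in SH SNA (log2 fold change 0.22 ± 0.057). The groups were again apart, and in Cyp51 and Idi1 the second SH SNA pool came close to EE + SNA.

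The other 6 called members were Stard4, which carries sterol inside cells, Insig1, which holds the SREBP complex in the endoplasmic reticulum, and the enzymes Sc5d, Nsdhl, Mvd and Hmgcs1. Stard4 was at 181, 187 and 161 CPM in EE + SNA and 132, 169 and 125 CPM in SH SNA (log2 fold change 0.31 ± 0.10), with the second SH SNA pool above the third EE + SNA pool. Hmgcs1, the synthase that feeds the pathway, was at 855, 845 and 870.0 CPM in EE + SNA and 730.3, 852 and 731 CPM in SH SNA (log2 fold change 0.15 ± 0.069). Srebf2, which encodes SREBP2, did not pass the test, at −0.0041 ± 0.077.

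The second SH SNA pool, which stands apart for another reason given further on, was the highest of the 3 SH SNA pools for 18 of these 19 genes. Without it, 15 of the 19 were called higher (2.03% of all genes were) and the median was 0.23, and without it and the third EE + SNA pool 14 were called higher (2.39%) and the median was 0.25. Leaving out the highest SH SNA pool had to raise the difference of those 18 genes, so these larger values are a description and no support. Without the third SH SNA pool 6 were called higher (2.14%), with a median of 0.14. In the fit without both pools Stard4 had a log2 fold change of 0.52 and an adjusted P of 0.00675 (edgeR). For Stard4 these were the lowest EE + SNA and the highest SH SNA pool. Leaving them out had to widen its difference, so this adjusted P is no support. In sham-operated mice, which share no sample with the injured groups, 6 of the 19 were called higher after EE and 0 lower (1.4% of all genes were called higher there), with a median of 0.13. They included Stard4 (log2 fold change 0.36), Mvd (0.28), Insig1 (0.26), Lss (0.25) and Idi1 (0.20). The interaction of housing and surgery called 0 of the 19.

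**Figure D2:**
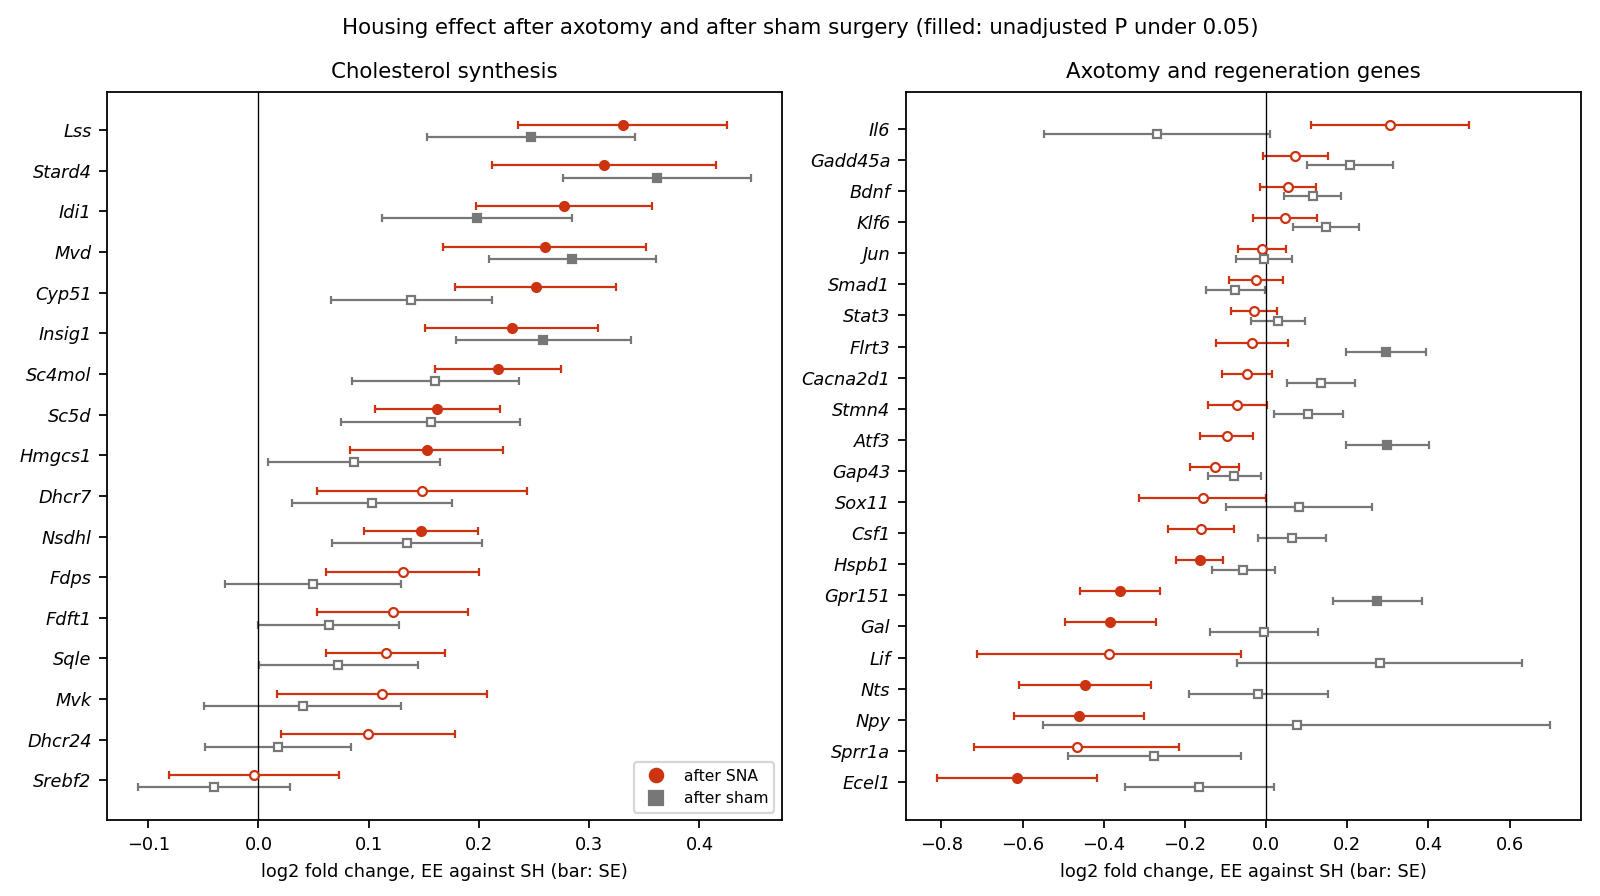
Log2 fold change of EE over SH (horizontal axes, bars are SE) for 17 genes of the cholesterol synthesis list (left) and the 22 measured genes of the axotomy and regeneration list (right), after SNA (red circles) and after sham surgery (grey squares). Filled symbols mark an unadjusted P under 0.05. On the left 10 red and 5 grey symbols are filled, all right of 0, and on the right 6 red symbols are filled left of 0 and 3 grey ones right of 0.

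The promoters of the cholesterol genes were searched for known motifs, since several members were called higher, and none lower, in both surgeries. The windows run from 250 bases before to 50 bases after the RefSeq transcription start (GRCm38.p6), and 12 of the 19 genes were in the table. Here and for the other gene sets, a gene was counted when any of its windows held the motif. The shares of all are over single windows, so genes with several windows are set against a lower share. The CCAAT box, bound by NF-Y, which acts beside SREBP2 on sterol genes, was present on either strand (CCAAT or ATTGG) in 12 of these 12, and in 37.4% of all 32851 windows. The sterol regulatory element TCACCCCAC was present in 1 of 12, Hmgcs1, and in 0.551% of all windows. Both motifs were chosen after the expression values were seen. TGANTCA (AP-1) was found in 2 of 12 windows and in 7.81% of all, and TTCNNNGAA (STAT), TGACGTCA (CRE) and the MEF2 motif in 0 of 12 against 8.3%, 1.79% and 0.11% of all. The E-box CANNTG was in 11 of 12 and in 72.3% of all.
The windows of the 4 genes called in all 7 fits, and of Hmgcs1 for its sterol element, follow 5′ to 3′ in the direction of the gene, with these 2 motifs in capitals. They are Msmo1, the RefSeq name of Sc4mol (chr8:64733529-64733828, minus strand), Lss (chr10:76531355-76531654, plus strand), Idi1 (chr13:8885356-8885655, plus strand), Cyp51 (chr5:4104648-4104947, minus strand) and Hmgcs1 (chr13:119690101-119690400, plus strand).
Msmo1: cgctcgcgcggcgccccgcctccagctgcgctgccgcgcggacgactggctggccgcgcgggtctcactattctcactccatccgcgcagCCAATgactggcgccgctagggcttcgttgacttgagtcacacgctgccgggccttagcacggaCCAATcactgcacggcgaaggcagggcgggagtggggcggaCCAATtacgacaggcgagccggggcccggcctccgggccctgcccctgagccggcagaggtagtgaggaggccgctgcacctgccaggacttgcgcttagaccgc
Lss: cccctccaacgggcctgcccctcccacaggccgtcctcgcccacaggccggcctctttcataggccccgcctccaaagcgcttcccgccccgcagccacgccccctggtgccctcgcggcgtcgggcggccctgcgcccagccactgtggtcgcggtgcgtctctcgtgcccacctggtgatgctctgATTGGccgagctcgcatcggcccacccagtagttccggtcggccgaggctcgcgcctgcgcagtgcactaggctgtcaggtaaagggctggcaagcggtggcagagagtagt
Idi1: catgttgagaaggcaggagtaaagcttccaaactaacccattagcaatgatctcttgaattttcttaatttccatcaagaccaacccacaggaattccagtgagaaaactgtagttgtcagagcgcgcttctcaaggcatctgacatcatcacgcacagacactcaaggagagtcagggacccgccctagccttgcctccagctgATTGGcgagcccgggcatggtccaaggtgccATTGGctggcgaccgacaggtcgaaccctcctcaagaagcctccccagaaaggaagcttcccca
Cyp51: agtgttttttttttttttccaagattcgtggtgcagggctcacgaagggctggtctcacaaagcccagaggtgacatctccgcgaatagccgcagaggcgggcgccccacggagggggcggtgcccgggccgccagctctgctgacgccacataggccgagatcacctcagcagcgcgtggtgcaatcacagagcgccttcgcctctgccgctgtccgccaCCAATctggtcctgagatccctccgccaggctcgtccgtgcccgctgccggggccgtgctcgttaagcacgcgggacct
Hmgcs1: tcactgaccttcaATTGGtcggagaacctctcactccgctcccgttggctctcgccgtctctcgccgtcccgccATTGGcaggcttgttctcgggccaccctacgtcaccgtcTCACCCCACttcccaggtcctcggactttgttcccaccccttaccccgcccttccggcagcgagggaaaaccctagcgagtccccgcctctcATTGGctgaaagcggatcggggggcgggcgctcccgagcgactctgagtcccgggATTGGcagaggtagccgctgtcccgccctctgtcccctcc
Msmo1 held 3 CCAAT boxes, Idi1 2, Lss and Cyp51 1 each, and Hmgcs1 5 capital runs, of which 4 were CCAAT boxes.

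Fatty acid genes, read with a list of 14 that was also picked after the values were seen, gave 4 higher and 0 lower, where 2.16% of all genes were called higher. Scd1, the stearoyl-CoA desaturase, was at 1313, 1248 and 1181 CPM in EE + SNA and 1064, 1110.5 and 1068 CPM in SH SNA (log2 fold change 0.21 ± 0.061). Acsl3, which activates long-chain fatty acids, had a log2 fold change of 0.31 ± 0.080, Acss2, which makes acetyl-CoA from acetate, 0.23 ± 0.066, and Thrsp, a regulator of lipogenesis, 0.40 ± 0.11. All 4 were called in all 7 fits, where 0.388% of all genes were called higher in all 7. The larger enzymes Fasn (0.13 ± 0.084) and Acaca (0.048 ± 0.063) did not pass.

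Part of the axotomy response was lower after EE + SNA than after SH SNA. Of 22 measured axotomy and regeneration genes, 6 were called lower and 0 higher, where 1.94% of all genes were called lower, and the median log2 fold change was −0.11. The 6 were Gpr151, Gal, Ecel1, Npy, Hspb1 and Nts, and Gpr151 and Gal were called in all 7 fits. Hspb1, a small heat shock protein, had a log2 fold change of −0.16 ± 0.057. 3 of the 6, Gal, Npy and Nts, encode the neuropeptides galanin, neuropeptide Y and neurotensin.

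Gal (chr19:3409915-3414544) was at 39.5, 34.1 and 44.97 CPM in EE + SNA and 52.1, 44.5 and 57.1 CPM in SH SNA (log2 fold change −0.38 ± 0.11). Every injured pool was above the sham pools, which held 17.8, 22.5 and 23.1 CPM in EE Sham and 18.7, 19.1 and 26.1 CPM in SH Sham, but the highest EE + SNA pool reached past the lowest SH SNA pool. Gpr151 (chr18:42577881-42579652), an orphan receptor of neurons, was at 31.9, 27.02 and 33.9 CPM in EE + SNA and 43.4, 38.02 and 37.1 CPM in SH SNA (log2 fold change −0.36 ± 0.099). Its injured groups did not overlap. In sham mice the sign was the opposite, 13.9, 13.7 and 16.00 CPM after EE and 12.4, 11.8 and 11.8 CPM after SH (log2 fold change 0.27, called higher), and the interaction called Gpr151 but not after adjustment.

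Npy was at 11.4, 7.702 and 8.95 CPM in EE + SNA and 14.99, 11.2 and 11.9 CPM in SH SNA (log2 fold change −0.46 ± 0.16). Nts was at 20.9, 23.3 and 25.7 CPM in EE + SNA and 39.4, 33.1 and 22.8 CPM in SH SNA (log2 fold change −0.45 ± 0.16). Ecel1, an axotomy-induced endopeptidase, was at 5.61, 5.53 and 7.74 CPM in EE + SNA and 11.9, 9.72 and 7.08 CPM in SH SNA (log2 fold change −0.61 ± 0.20). In Npy, Nts and Ecel1 the first SH SNA pool was highest of the 6, and each pair of groups overlapped. Without that pool 3 of the 22 genes were called lower (1.96% of all genes were) and the median was −0.059, and without the second EE + SNA pool 4 were (2.65%), with a median of −0.061. Without the third EE + SNA and second SH SNA pools 9 were called lower (2.89% of all genes were), and Gal then had a log2 fold change of −0.59 and an adjusted P of 0.0186 (edgeR). For Gal these were the highest EE + SNA and the lowest SH SNA pool. Leaving them out had to widen its difference, so this adjusted P is no support.

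The transcription factors of the program did not differ at the threshold, with Jun at −0.0093 ± 0.059, Stat3 at −0.030 ± 0.056, Smad1 at −0.026 ± 0.067, Klf6 at 0.046 ± 0.078 and Sox11 at −0.16 ± 0.16. Nor did the growth genes Gap43 (−0.13 ± 0.061) and Sprr1a (−0.47 ± 0.25). Of these transcription factor and growth genes Sprr1a had the largest SE, with 30.5, 18.1 and 40.1 CPM in EE + SNA and 53.4, 32.7 and 34.1 CPM in SH SNA. In sham mice 3 of the 22 were called higher after EE (1.4% of all genes were) and 0 lower. They were Gpr151, Flrt3 (0.30) and Atf3 (0.30).

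Other genes at the lower end belonged to no list. Acer2, an alkaline ceramidase of the Golgi that turns ceramide into sphingosine, had the smallest P of all lower genes, with 7.92, 6.88 and 9.43 CPM in EE + SNA and 14.4, 11.5 and 13.5 CPM in SH SNA (log2 fold change −0.72 ± 0.14). It was lower after EE in sham mice too, at 5.59, 7.89 and 7.47 CPM against 8.86, 13.4 and 10.7 CPM (log2 fold change −0.64, called lower). In both surgeries the EE pools were all below the SH pools. Without the third EE + SNA and second SH SNA pools its log2 fold change was −0.94, with an adjusted P of 0.0132 (edgeR). For Acer2 these were the highest EE + SNA and the lowest SH SNA pool. Leaving them out had to widen its difference, so this adjusted P is no support.

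Myo10, the unconventional myosin of filopodia, was at 51.1, 49.6 and 58.02 CPM in EE + SNA and 67.97, 65.7 and 62.6 CPM in SH SNA (log2 fold change −0.31 ± 0.073). Fam124a was at 25.8, 22.97 and 24.8 CPM in EE + SNA and 36.4, 32.6 and 29.9 CPM in SH SNA (log2 fold change −0.43 ± 0.092). In sham mice neither was called, with log2 fold changes of 0.056 and 0.095, and the interaction called both at the unadjusted threshold. Chst2, a sulfotransferase of glycans, was at 80.5, 87.9 and 89.7 CPM in EE + SNA and 107, 96.7 and 105 CPM in SH SNA (log2 fold change −0.25 ± 0.063), and Serac1, which acts in phospholipid remodelling, at 7.65, 8.57 and 7.66 CPM in EE + SNA and 11.1, 10.6 and 12.7 CPM in SH SNA (log2 fold change −0.52 ± 0.12). For each of these 4 genes the 3 SH SNA pools were above the 3 EE + SNA pools.

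By the same rule as for Cyr61 and Ctgf (called in all 7 fits, groups apart, at least 1 CPM), the 10 largest decreases ranged from −1.62 for 1110002E22Rik to −0.64 for Gm5152. They held Kcnj13, an inward rectifier potassium channel (log2 fold change −0.84 ± 0.23), Flnc, the actin crosslinker filamin C of muscle, which was highest in the second SH SNA pool at 26.7 CPM (log2 fold change −0.85 ± 0.25), Ppargc1b, a coactivator of mitochondrial genes (log2 fold change −0.75 ± 0.25), and Gemin8 of the SMN complex (−0.64 ± 0.21). The others were Zfp366 (−1.10, and −1.06 and called lower in sham mice), RP23-428C21.5 (−0.95), Mab21l1 (−0.77) and Acer2. 1110002E22Rik had its highest value in the second SH SNA pool, at 4.65 CPM, against 1.147 and 1.59 CPM in the other SH SNA pools and at most 0.8899 CPM in EE + SNA. Exons of Kcnj13 share 49.1% of their bases with Gigyf2, those of Mab21l1 39.4% with Nbea and those of RP23-428C21.5 25.9% with Banp, all on the other strand, so that their counts are uncertain.

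The 10 largest increases by this rule, which leaves out larger ones such as those of fat and eosinophil genes given further on, ranged from 0.95 for Exoc3l2 to 0.69 for Ctgf. Beside Lmod1, Acta2, Cyr61 and Ctgf they held Slc43a1, a transporter of large neutral amino acids, at 4.18, 3.31 and 5.96 CPM in EE + SNA and 2.29, 2.28 and 2.47 CPM in SH SNA (log2 fold change 0.91 ± 0.24). Cdc20, an activator of the anaphase-promoting complex, was low at 1.87, 1.39 and 2.34 CPM in EE + SNA and 1.07, 0.845 and 1.03 CPM in SH SNA (log2 fold change 0.88 ± 0.30). It was the only 1 of 14 proliferation genes called, while the median of that list was 0.48 with all pools and −0.13 without the third EE + SNA pool. The remainder were Fgf4, a fibroblast growth factor (0.79), Hexim2, an inhibitor of transcription elongation (0.72), and AK086914 (0.92). Exons of Ctgf share 23.2% of their bases with Gm15270 on the other strand. Hnrpdl, an RNA-binding protein, and Mir22hg, the host transcript of miR-22, had smaller changes with a small P (log2 fold change 0.29 ± 0.061 and log2 fold change 0.41 ± 0.087).

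Promoter windows were in the table for 12 of the 20 genes of these sets of largest changes. The STAT, AP-1, CRE and MEF2 motifs were in 0 of the 12, against 8.3%, 7.81%, 1.79% and 0.11% of all windows. The E-box was in 6 of the 12, against 72.3% of all windows, and the CCAAT box in 7, against 37.4%.

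A second kind of difference rested on single pools. A gene was taken to belong to 1 pool where its log2 CPM there was at least 1 above those of the 5 other injured pools, among 15379 genes with a mean of at least 1 CPM. By this measure 49 genes were highest in the third EE + SNA pool and 69 in the second SH SNA pool, while the other 4 pools had 3, 1, 0 and 1. Of the 666 called genes, 13 were of this kind.

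The 69 genes of the second SH SNA pool included 25 of the 27 skeletal muscle markers tested, and 43 that are in no list, while all 27 muscle markers had their highest injured level there. Acta1, skeletal alpha-actin, was at 8.03, 263 and 9.39 CPM in SH SNA and 29.6, 23.5 and 32.4 CPM in EE + SNA. Mb, which encodes myoglobin, was at 1.76, 47.7 and 1.59 CPM in SH SNA and 3.65, 2.48 and 4.35 CPM in EE + SNA, and Myh2, a fast myosin heavy chain, at 0.918, 35.4 and 1.35 CPM in SH SNA and 3.38, 1.26 and 3.14 CPM in EE + SNA. Outside the marker lists the largest gaps included those of Ckmt2, Mybpc1, Csrp3, Lmod2 and Ankrd2, which are genes of muscle mitochondria and sarcomeres. Ckmt2 was at 20.4 CPM in this pool and between 0.382 and 1.69 CPM in the other 5.

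The summed level of the muscle list was 94.7, 1792 and 108 CPM in SH SNA and 238, 217 and 333 CPM in EE + SNA. With all pools its median log2 fold change was −1.33 and 3 genes were called lower (1.94% of all genes were), Mb (log2 fold change −2.31 ± 1.01), Myh2 and Tcap. Without the first or the third SH SNA pool 21 and 19 were called lower (1.96% and 1.97% of all genes were), and without the first or the second EE + SNA pool 0 were. The sign turned without the second SH SNA pool. Then the median was 1.19, 25 of 27 were positive and 23 were called higher, where 2.03% of all genes were. Of the 27 genes, 22 had all 3 EE + SNA pools above the other 2 SH SNA pools. Acta1 then had a log2 fold change of 1.69 ± 0.15 with an adjusted P of 0.00223 (edgeR), and so did Ckm, the muscle creatine kinase, with 1.98 ± 0.19 and the same adjusted P. The left-out pool was singled out by these same muscle genes, so these values describe the remaining pools and are no test of housing.

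In the sham pools the muscle list summed to 35.9, 331 and 130.4 CPM in EE Sham and 24.9, 43.8 and 261 CPM in SH Sham, a range as wide within each housing as between them, with 0 of 27 called. Skeletal muscle is no part of a ganglion, and the part of this RNA in other results of that pool was not tested.

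The 49 genes of the third EE + SNA pool held 8 of the 14 neutrophil markers tested, and all 14 had their highest injured level in this pool. S100a9, a calcium-binding protein of neutrophils, was at 72.2, 65.97 and 323 CPM in EE + SNA and 88.6, 53.8 and 137 CPM in SH SNA. Elane, the neutrophil elastase, was at 1.16, 0.7397 and 7.41 CPM in EE + SNA and 0.994, 0.507 and 1.27 CPM in SH SNA, and Mpo, myeloperoxidase, at 2.85, 1.697 and 15.2 CPM in EE + SNA and 2.83, 1.18 and 4.22 CPM in SH SNA. Elane and Mpo are made by granulocyte precursors. S100a8, Ngp and the collagenase gene Mmp13 were also highest in this pool, with Mmp13 at 8.38 CPM in this pool and at most 3.02 CPM in the others. Outside the marker lists the largest gaps were in the eosinophil granule genes Epx, Prg2, Ear1 and Ear2, in Rhag of the red cell membrane and in Ctse. Epx was at 1.07, 0.827 and 5.802 CPM in EE + SNA and 0.459, 0.253 and 0.875 CPM in SH SNA, and was called through this pool (log2 fold change 2.18 ± 0.77) with 0.45 when it and the second SH SNA pool were left out. Ear1 and Ear2 are near copies of each other, which makes their separate counts uncertain.

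The neutrophil list summed to 223, 190.0 and 888 CPM in EE + SNA and 254, 150.0 and 391 CPM in SH SNA. Its median log2 fold change was 0.66 with all pools, where 0 of 14 were called, and −0.35 without the third EE + SNA pool, where again 0 were called (1.79% of all genes higher and 1.83% lower). Without the second EE + SNA pool 9 were called higher (3.2%), with a median of 1.04. Without the third EE + SNA and the second SH SNA pools all 14 were negative, with a median of −0.65 and 12 called lower (2.89% of all genes were). For the sum of this list these were the highest EE + SNA and the lowest SH SNA pool. Leaving them out had to lower the summed difference. A list of 11 tested red cell precursor genes, picked after the values were seen, summed to 42.98, 27.4 and 121 CPM in EE + SNA and 39.9, 25.8 and 72.3 CPM in SH SNA, and 10 of the 11 were genes of the third EE + SNA pool. In the macrophage list there were 0 of 20 genes of a single pool, 0 called and a median of −0.0014, and its sum was also highest in that pool (245, 238 and 381 CPM in EE + SNA, 296, 216 and 276 CPM in SH SNA).

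**Figure D3:**
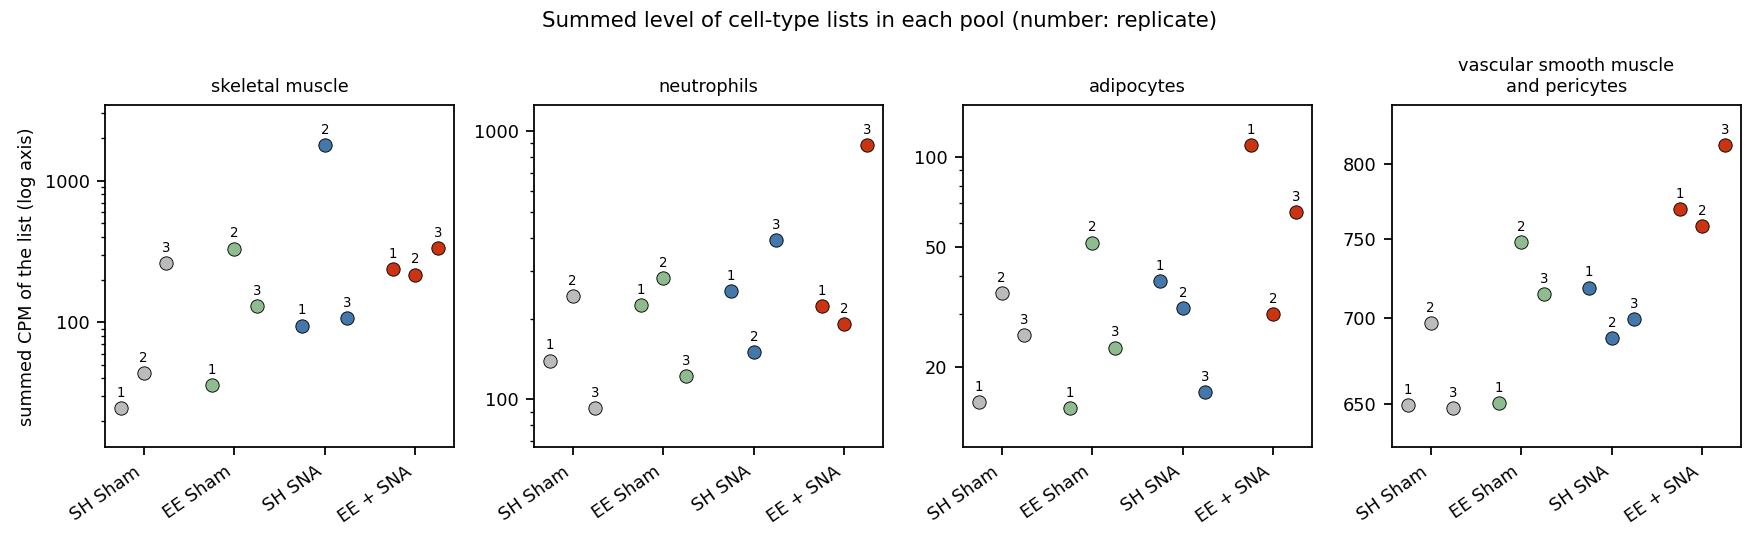
Summed CPM (vertical axes, logarithmic, with a separate range in each panel) of the skeletal muscle, neutrophil, adipocyte and smooth muscle lists in each of the 12 pools, with the replicate number above each point. SH SNA pool 2 stands out for muscle at 1792 CPM, EE + SNA pool 3 for neutrophils at 888 CPM and EE + SNA pool 1 for adipocytes at 109 CPM, while for smooth muscle the 3 EE + SNA pools are above the 3 SH SNA pools.

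Fat was a further tissue whose genes followed pools. Of 8 adipocyte markers tested, 7 were called higher (2.16% of all genes were) and 0 lower after EE + SNA, with a median of 1.24. Fabp4, the fatty acid binding protein of adipocytes, was at 48.4, 11.97 and 33.9 CPM in EE + SNA and 16.6, 14.4 and 7.96 CPM in SH SNA (log2 fold change 1.24 ± 0.41). Ucp1, the uncoupling protein of brown fat, was at 9.52, 0.08703 and 3.06 CPM in EE + SNA and 1.07, 0.253 and 0.159 CPM in SH SNA (log2 fold change 2.93 ± 1.13), and its groups overlapped. The list summed to 109, 30.02 and 65.4 CPM in EE + SNA and 38.6, 31.3 and 16.5 CPM in SH SNA, so that the second EE + SNA pool was within the SH SNA range. Without the first EE + SNA pool, or without the third SH SNA pool, 0 of the 8 were called (1.57% and 2.14% of all genes were called higher), with medians of 0.72 and 0.94. Without the second or the third EE + SNA pool 8 and 5 were called higher (3.2% and 1.79% of all genes). Without the second SH SNA pool 3 were (2.03%), and without the first SH SNA pool 7 were, in a fit that called 321 of 16238 genes higher. None of the 8 was called in all 7 fits. In sham mice 0 were called (median 0.27). Adipocytes also use genes of fatty acid synthesis, and Scd1 in the fatty acid list is one of them.

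The genes called in all 7 fits were then read without the pair of pools that stand apart. Without the third EE + SNA and second SH SNA pools, all 133 kept their sign and 110 were called, in a fit of 2 pools against 2 that called 857 genes (5.28%). These 4 pools also took part in choosing the 133. In that fit 20 genes passed adjustment by edgeR, 12 of them of the skeletal muscle list and 8 outside it. Outside the list, Tpm2 turned sign as the muscle genes did (−0.86 with all pools and 0.89 in that fit). So did A930016O22Rik (−1.27 and 1.40) and Ube2c (−1.05 and 1.24). Stard4, Gal and Acer2 were also outside it and kept their sign, but for them the left-out pools were those nearest the other group. In sham mice 81 of the 133 genes had the same sign. There 13 of the 133 were called in either direction, where 2.97% of all genes were called in either direction. Not all 13 had the same sign, since Gpr151 was called lower after SNA and higher in sham mice. Housing effects after SNA chose these genes and enter the interaction, so that its calls among them are not counted. Across all 16238 genes, the housing effect after SNA and that after sham surgery had a Pearson correlation of 0.058 (Spearman 0.083), a description over genes of 4 groups of 3 pools in which no sample is shared.

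**Figure D4:**
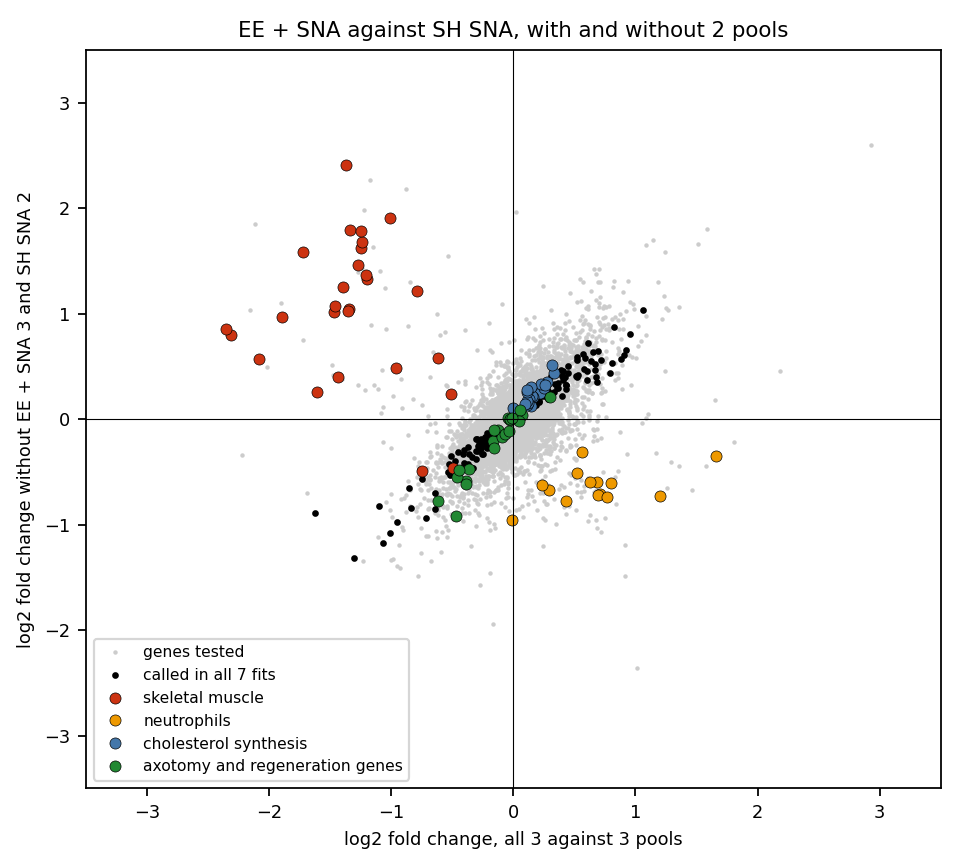
Log2 fold change of EE + SNA over SH SNA with all 6 pools (horizontal) and without EE + SNA pool 3 and SH SNA pool 2 (vertical) for each gene tested, and for 4 lists. Skeletal muscle genes (red) sit left of 0 and, for 25 of 27, above 0, neutrophil genes (orange) sit below 0, and genes called in all 7 fits (black), cholesterol genes (blue) and axotomy genes (green) keep near the diagonal. 1 gene lies outside the frame.

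Subunits of NADPH oxidase 2, the phagocyte enzyme that makes superoxide, were examined next, since the study turns on them. The study reported their RNA as higher after EE + SNA with SH Sham as the reference, beside RT-PCR, immunoblots and immunostaining. It described this rise as exclusive to EE + SNA among its 3 comparisons with SH Sham, the others being EE Sham and SH SNA. The contrast here is directly with SH SNA and does not test the rise over SH Sham. It asks only whether their RNA was higher after EE + SNA than after SH SNA. None of the 6 measured here (Cyba, Cybb, Ncf1, Ncf4, Rac1, Rac2) was called between EE + SNA and SH SNA. All 6 had a positive sign, with a median of 0.32. Cybb, the catalytic subunit, was at 4.81, 6.35 and 17.2 CPM in EE + SNA and 8.105, 5.24 and 9.71 CPM in SH SNA (log2 fold change 0.28 ± 0.39). Ncf1, the organizer p47phox, was at 5.34, 4.003 and 15.6 CPM in EE + SNA and 6.35, 3.72 and 6.92 CPM in SH SNA (log2 fold change 0.51 ± 0.43), and Cyba, the membrane partner p22phox, at 5.07, 4.18 and 8.301 CPM in EE + SNA and 3.899, 2.96 and 4.85 CPM in SH SNA (log2 fold change 0.56 ± 0.27). The third EE + SNA pool, which also had the highest neutrophil genes, was the highest of the 6 in all of them. Rac2, the GTPase of blood cells, was at 4.81, 3.96 and 13.3 CPM in EE + SNA and 5.58, 4.39 and 7.64 CPM in SH SNA, whereas Rac1, the form found in all cells, was at 393, 374 and 417 CPM in EE + SNA and 401, 383 and 374 CPM in SH SNA (log2 fold change 0.033 ± 0.059). Without that pool the median was −0.28 and 0 were called, and without it and the second SH SNA pool the median was −0.46 and 3 were called lower (2.89% of all genes were). The second SH SNA pool was the lowest of its group for Cyba, Cybb, Ncf1 and Rac2. Leaving out both pools had to lower these differences. Without the second EE + SNA pool 2 were called higher (3.2%), with a median of 0.68. Exons of Rac1 share 51.4% of their bases with Daglb and those of Ncf1 11.1% with Gtf2ird2, on the other strand.

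**Figure D5:**
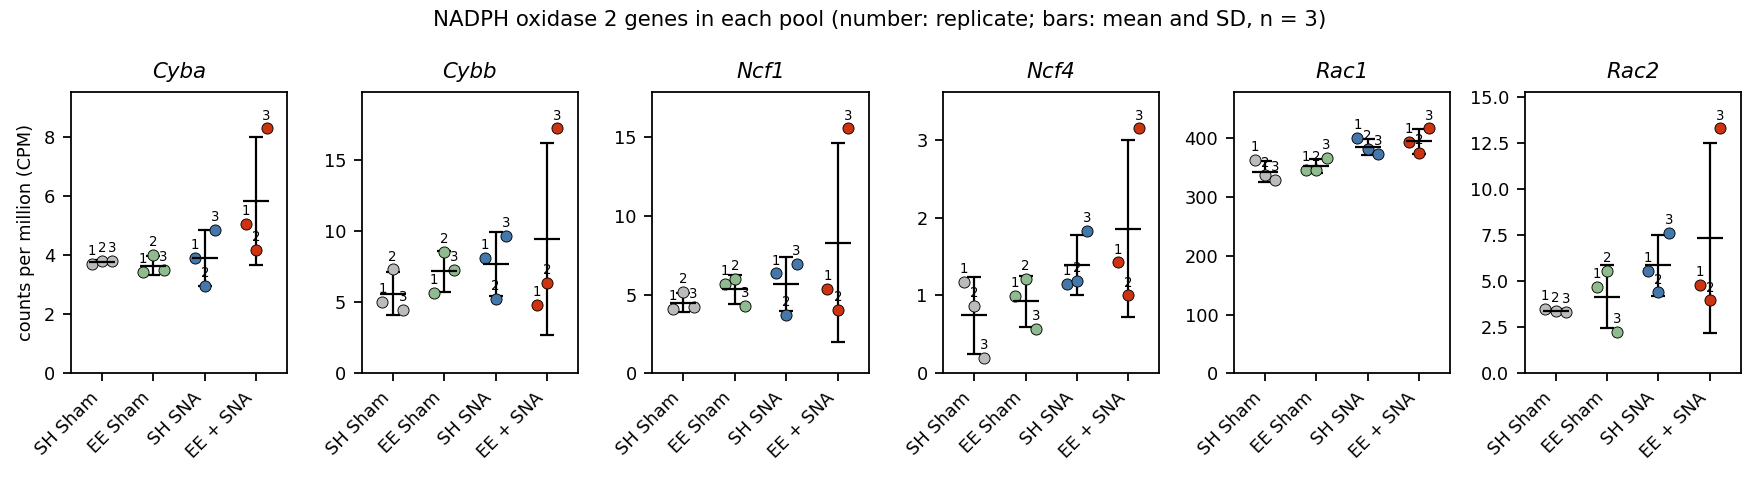
CPM (vertical axes, linear from 0) of 6 NADPH oxidase 2 genes in the 4 groups, with the replicate number above each pool and bars for the mean and SD of 3 pools. In each panel EE + SNA pool 3 is the highest of the 6 injured pools, and at least 1 of EE + SNA pools 1 and 2 is below the highest SH SNA pool.

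Of 15 clock genes 3 were called higher and 0 lower, where 2.16% of all genes were called higher. Without the second SH SNA pool 2 were called higher and 2 lower (2.03% and 2.01% of all genes), and without it and the third EE + SNA pool 1 higher and 2 lower (2.39% and 2.89%). Nr1d1, the repressor REV-ERB alpha, was at 68.4, 69.1 and 67.4 CPM in EE + SNA and 60.02, 55.1 and 61.7 CPM in SH SNA (log2 fold change 0.21 ± 0.062), and Gm129 (now named Ciart), a circadian repressor, at 3.65, 2.96 and 3.71 CPM in EE + SNA and 2.37, 2.03 and 2.31 CPM in SH SNA (log2 fold change 0.60 ± 0.20). These were called in all 7 fits, and the third, the output factor Dbp (log2 fold change 0.44 ± 0.18), was not. The core genes Arntl (0.12), Clock (−0.083) and Per2 (−0.12) did not pass. The hours at which the mice were killed are not given in the sources used here.

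Of 17 genes of the type I interferon response 3 were called lower (1.94% of all genes were) and 0 higher, with a median of −0.12. Those called were Ifit1 (log2 fold change −0.28 ± 0.095), Ifit3 (−0.25 ± 0.093) and Ifi44 (−0.77 ± 0.29), antiviral proteins induced by interferon. None was called in all 7 fits, and without the first SH SNA pool 0 of 17 were called (1.96% of all genes were called lower). Without the third SH SNA or the third EE + SNA pool the median was −0.23 and −0.20, with 4 called lower in each (1.97% and 1.83%). Without the first EE + SNA pool 1 was called lower, and without the second SH SNA pool 1 was called lower (2.01%) and 1 higher (2.03%). Of 70 respiratory chain genes 3 were called higher and 0 lower (median 0.048), 4.29% against 2.16% of all genes, and Uqcrb of complex III was the one called in all 7 fits.

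In 2 further lists single genes were called in all 7 fits, where 0.388% of all genes were called higher in all 7 and 2.16% in the main fit. Cxcl12, a chemokine of stromal cells, was at 52.7, 56.3 and 69.9 CPM in EE + SNA and 41.1, 49.5 and 47.8 CPM in SH SNA (log2 fold change 0.37 ± 0.11), the only 1 of 15 chemokine genes tested. Ighm, the heavy chain of IgM, was at 49.7, 45.6 and 54.6 CPM in EE + SNA and 38.8, 39.6 and 42.1 CPM in SH SNA (log2 fold change 0.31 ± 0.080), the only 1 of 7 lymphocyte genes tested. In both, the groups did not overlap. All 7 lymphocyte genes had a positive sign, with a median of 0.43, and 0.023 without the third EE + SNA and second SH SNA pools. The chemokine median was 0.013 with all pools and −0.15 without those 2. For the sum of each list these were the highest EE + SNA and the lowest SH SNA pool, so leaving them out had to lower the summed difference.

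For several programs no member was called. These were the 26 ion channels and transducers of sensory neurons (median −0.055), the 21 protein kinase C and diacylglycerol kinase genes (−0.021), the 14 genes of the IL6 family and STAT3 (−0.020), the 11 immediate early genes (−0.012), the 12 glucocorticoid-responsive genes (−0.0014), the 38 collagens (0.058) and the 13 genes of myelinating Schwann cells (0.088). Without the third EE + SNA and second SH SNA pools, 8 of the 38 collagens, 4 of the 13 Schwann cell genes and 4 of the 12 glucocorticoid-responsive genes were called lower, as were 7 of the 20 macrophage genes, where 2.89% of all genes were. For the sum of each of these lists, the left-out pools were the highest of EE + SNA and the lowest of SH SNA. Leaving them out had to lower the summed difference, so these calls are a description. Of the 8 satellite glia genes 1 was called lower, the endothelin receptor gene Ednrb, and of the 20 histone acetylation genes 1, the deacetylase gene Sirt1, was called lower. Of the 77 ribosomal protein genes 71 had a positive sign, with a median of 0.064, and 1 was called. All 11 mitochondrial mRNAs tested had a positive sign (median 0.11), and 2 of them were called higher. In these lists of few calls, 2.16% of all genes were called higher and 1.94% lower.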

How the data were processed

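DRG mRNA libraries (TruSeq, paired-end on an Illumina HiSeq) of 12 pools were sequenced. The authors aligned reads to mm10 with TopHat 2.0.12 and Bowtie2 2.2.3 and deposited raw counts per gene from HTSeq, and FPKM whose computation is not given in the sources used here. The strand and overlap settings of the counting are not given either. In the 6 injured pools, lines outside genes (46.7% to 47.4% without a feature, 8.85% to 9.28% not unique) were left out.

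Genes passing filterByExpr (minimum count 10, 4 groups) were tested on counts by edgeR 4.0.16 (quasi-likelihood F-test, two-sided, TMM, R 4.3.3) with the 3 EE + SNA and 3 SH SNA pools. The study called genes at the same unadjusted threshold. Called means an unadjusted P below 0.05. The interaction used all 12 pools. An exact permutation test of 3 against 3 cannot go below P = 0.1. Each pool holds 2 mice and is 1 replicate.

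Named genes were the 10 highest and 10 lowest log2 fold changes among genes called in all 7 fits whose groups were apart and averaged 1 CPM or more, the 5 smallest P in each direction, the 6 largest gaps inside and outside marker lists for each of the 2 pools, Atf3, and list members by P. Further list members, most of them not called, and Ckm were named after their values were seen. The members and lists were chosen with earlier results of these data known. Positions are those of GENCODE vM21, and promoters those of RefSeq (GRCm38.p6). Alternatives were DESeq2 1.42.0, limma 3.58.1 on FPKM, other filters and scalings, a replicate block and pools left out. Some genes are counted within lists but not reported singly here. The code was tested on simulated data.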

Additional observations from a re-analysis of the deposited data

Results flagged for a closer look

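Of 64 named genes, 19 had a housing effect after SNA that differed from that after sham surgery, by the interaction term of the edgeR fit over all 12 pools at an unadjusted P below 0.05, where 2.61% of all genes were called. Most of these genes were named for their housing effect after SNA, which enters the interaction, so that the count cannot be read against that share. 0 of them passed adjustment, for which the smallest adjusted P of any gene was 0.458. The difference between both effects, on the log2 scale, was negative for Gpr151 (−0.63), Fam124a (−0.53), Flnc (−1.18), Myo10 (−0.37), Atf3 (−0.40), Serac1 (−0.43), Ppargc1b (−0.95), RP23-428C21.5 (−1.12), Kcnj13 (−0.89), Gemin8 (−0.65), Ifit3 (−0.34) and Ifi44 (−0.9965). It was positive for Hexim2 (1.02), Dbp (0.68), Gm129 (0.80), Fgf4 (0.98), Cidea (0.62), Nr1d1 (0.20) and Ctgf (0.82). By the fitted sign, the genes with a negative difference, except Serac1, were lower after EE in injured ganglia and higher after EE in sham ganglia. Those with a positive difference, except Nr1d1, were the reverse. Some of the sham effects were near 0, as for Gemin8 (0.00051) and Kcnj13 (0.049). EE Sham is described by the study as an earlier dataset, and its part in these differences was not tested.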

How the results depend on the processing

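The count of called genes was 312 by DESeq2 and 1096 with no filter on low counts, against 666. After adjustment it was 2 by DESeq2, 18 with no filter, 7 without the second SH SNA pool and 20 without the third EE + SNA and second SH SNA pools, against 0, and over fits without 1 pool each it ranged from 0 to 7. The counts without 1 pool ranged from 557 to 950 at the unadjusted threshold, and other scaling, the likelihood ratio test (457), limma on FPKM and the fit of all 12 pools stayed within 1.5 times 666. The share of higher calls was 52.7%, and 45.3% to 56.9% over all settings, with 302 higher and 348 lower by library size alone. Genes whose groups do not overlap were 2981 to 3591 without 1 pool each and 5370 without both pools, against 1684, since fewer pools overlap less. Genes called in all 7 fits were 79 by the likelihood ratio test, of which 76 were among the 133. The interaction called 186 genes by DESeq2, 854 with no filter and 362 to 771 without 1 pool each (771 without the second EE Sham pool), against 423, and after adjustment 1 by DESeq2, 1 by the likelihood ratio test and 77 with no filter, against 0. Genes of the third EE + SNA pool were 5 at a gap of 2 log2 units and 11 at a mean of 5 CPM, against 49, and those of the second SH SNA pool 40 and 36, against 69. Values without the single pool that stands apart are followed by those without both. Without the second SH SNA pool the median of skeletal muscle turned to 1.19 and 1.05 (−1.51 without the third EE + SNA pool). The log2 fold change turned to 1.69 and 1.58 for Acta1, 1.01 and 0.80 for Mb, 1.10 and 0.86 for Myh2 and 0.83 and 0.57 for Tcap, while without each other pool the lowest were −2.27, −2.86, −2.92 and −2.62, and Acta1 was at 0.045 by limma on log2(FPKM + 0.1). Without the third EE + SNA pool the median of neutrophils turned to −0.35 and −0.65 (0.38 without the second SH SNA pool) and that of NADPH oxidase 2 genes to −0.28 and −0.46 (0.17). Log2 fold changes turned for Elane (−0.053 and −0.35, up to 2.21 without another pool), S100a9 (−0.44 and −0.71, up to 1.10), Cybb (−0.44 and −0.63, up to 0.56), Ncf1 (−0.31 and −0.56, up to 0.89), Ncf4 (−0.25 and −0.36, up to 0.73), Rac1 (−0.0075 and −0.015, up to 0.071) and Rac2 (−0.44 and −0.62, up to 0.63). The median of cholesterol synthesis was 0.152 without the third EE + SNA pool, 0.232 without the second SH SNA pool and 0.250 without both. The second SH SNA pool was the highest of its group for most of these genes, so leaving it out had to raise their differences.

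Replicate numbers were not taken to pair the samples, since deviations of same-numbered pools correlated at 0.057, 0.113 and 0.126, although each pool correlated best with its own number. A fit with a block for the replicate number called 857 genes, 0 of them after adjustment, and each of the 133 genes called in all 7 fits. Its smallest adjusted P was 0.135 (edgeR), against 0.989 without the block. With the block in each of the 7 fits, 132 genes were called in all of them, of which 78 were among the 133. With the block 11 of 14 neutrophil genes (median 0.48), 1 of 6 NADPH oxidase 2 genes and 3.01% of all genes were called higher. With no filter on low counts these were 10 of 15, 2 of 6 and 2.29%, and 28 of 28 muscle genes were called lower (2.15% of all genes). Replicate pools differed by more than counting error (chi-square per degree of freedom 3.88 to 8.42). The 28 genes of the named sets gave 443 values over the settings, of which 433 kept direction and side of the threshold, 10 kept direction only and 0 reversed, but 20 of the 28 were chosen for calls in all 7 fits. The other 68 named genes gave 1071 values, of which 798 kept direction and side, 229 fell below the threshold, 21 passed it and 23 reversed.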
